A study of Mus musculus with 6 samples.

Results

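The genes described here make, sense and clear extracellular adenosine. They are 7 genes chosen by symbol from a table of 55573 genes. Entpd1 (CD39) and Nt5e (CD73) are the surface enzymes that form adenosine, Adora2a, Adora2b and Adora3 are adenosine receptors, and Ada and Adk remove adenosine. All 7 were found once each in the table and passed the filter on low counts that left 16493 genes to test.

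Expression was measured in 6 mouse RNA-seq libraries, 3 from wild-type (WT) and 3 from Abcc4-/- samples, all labelled as megakaryocytes, the platelet-forming cells. The labels give no strain, age, treatment or description of the Abcc4 allele. Nothing in them says that the 3 samples of a genotype were separate mice, so the p-values reflect only variation among these 6 libraries, some of which may be technical. Abcc4 encodes a membrane pump that exports cyclic nucleotides, and the comparison asks how transcript levels differ between the genotypes. Libraries held 50440283 to 55123551 counts in WT and 67009967 to 99294510 in Abcc4-/-, so the Abcc4-/- libraries were the deeper ones. Levels are given as CPM, counts scaled to a common sequencing depth. For Abcc4 itself the WT mean was 73.9 ± 1.96 CPM and the Abcc4-/- mean 61.0 ± 1.13 CPM (SD, n = 3 each; log2 fold change -0.28, SE 0.05, edgeR adjusted p = 0.0026). Those values span the whole gene and do not test the genotype. The 13 megakaryocyte markers summed to between 285 and 343 CPM in WT and between 197 and 237 CPM in Abcc4-/-, whereas 10 neutrophil markers summed to between 21015 and 27422 CPM and between 37210 and 39831 CPM. Transcripts of other blood lineages were thus abundant in libraries labelled as megakaryocytes. The sample titles contain CD41, the name of a surface protein of megakaryocytes and platelets, but the labels do not say how the cells were selected.

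Cells release ATP and ADP, which drive platelet activation. CD39 strips these nucleotides to AMP, and CD73 turns AMP into adenosine, which can also arise from exported cyclic AMP. The receptors encoded by Adora2a and Adora2b raise cyclic AMP inside the cell and dampen platelet and leukocyte responses, while the receptor encoded by Adora3 couples to inhibitory G proteins. Adenosine deaminase (Ada) converts adenosine to inosine, and adenosine kinase (Adk) returns it to AMP.

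The promoters of Entpd1 and Nt5e are shown because these were the members that differed between the genotypes. Each sequence runs from 250 bases before a RefSeq transcription start to 50 bases after it (GRCm38.p6, plus strand). Capitals mark TGACG, the core of the cyclic AMP response element, on either strand. Entpd1 has a start in the window chr19:40612116-40612415 and another in chr19:40659520-40659819, and the Nt5e window is chr9:88327359-88327658.
Entpd1, upstream start: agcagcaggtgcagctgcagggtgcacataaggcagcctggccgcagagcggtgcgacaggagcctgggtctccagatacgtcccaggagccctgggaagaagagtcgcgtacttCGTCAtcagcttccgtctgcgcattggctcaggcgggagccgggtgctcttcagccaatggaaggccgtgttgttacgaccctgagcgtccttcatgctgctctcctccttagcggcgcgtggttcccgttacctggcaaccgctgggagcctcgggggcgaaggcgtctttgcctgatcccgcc
Entpd1, downstream start: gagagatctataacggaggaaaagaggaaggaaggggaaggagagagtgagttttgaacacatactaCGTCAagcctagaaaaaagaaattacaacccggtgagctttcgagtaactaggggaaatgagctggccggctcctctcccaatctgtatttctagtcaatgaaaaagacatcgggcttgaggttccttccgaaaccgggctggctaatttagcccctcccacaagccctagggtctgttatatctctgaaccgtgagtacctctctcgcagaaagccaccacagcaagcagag
Nt5e: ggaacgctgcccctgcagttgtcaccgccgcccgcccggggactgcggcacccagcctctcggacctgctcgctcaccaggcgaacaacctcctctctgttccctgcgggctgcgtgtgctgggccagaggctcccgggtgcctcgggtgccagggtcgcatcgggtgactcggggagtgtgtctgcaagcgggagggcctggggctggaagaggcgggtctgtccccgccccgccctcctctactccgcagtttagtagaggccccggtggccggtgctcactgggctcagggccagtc

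Each Entpd1 window held 1 core, beginning at position -135 from the upstream start and at -183 from the downstream start, where position 1 is the first transcribed base. Nt5e held none. Over the 8 windows of the 6 members in the RefSeq promoter table, 3 held the core, the other one lying upstream of Adk at -12, against 20.8% of 32851 mouse promoters of the same length. The full element TGACGTCA, which contains the core, was in none of the 8 and in 1.79% of all promoters. The AP-1 motif TGANTCA was in 1 window, that of Adora3 at -98 (7.81% of all promoters), and the hypoxia core ACGTG was in none (19.6%). The NF-kB motif was also in none (0.411%). These are matches of letters in short windows, searched on both strands.

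The adenosine-forming enzymes were both higher in Abcc4-/-, and no receptor or clearing enzyme passed the test. Nt5e rose 1.77-fold and Entpd1 1.22-fold (edgeR quasi-likelihood test, Benjamini-Hochberg adjusted p below 0.05 over all genes). Of the 7 members 2 were called, both higher. At an unadjusted p below 0.05 there were 4, with Ada and Adora3 added, and DESeq2 called 3, with Ada added. Across all tested genes 17.3% were called, 8.61% higher and 8.68% lower. A count of 2 among 7 genes is too small to say anything about the members as a group. The median log2 fold change of the members was 0.25, and that of all genes tested was 0.00. The CPM of the groups did not overlap for 5 of the 7, against 36.8% of all tested genes. These were Nt5e, Entpd1, Ada and Adora3, higher in Abcc4-/-, and Adk, whose lowest WT and highest Abcc4-/- libraries both round to 35.8 CPM.

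**Figure D1:**
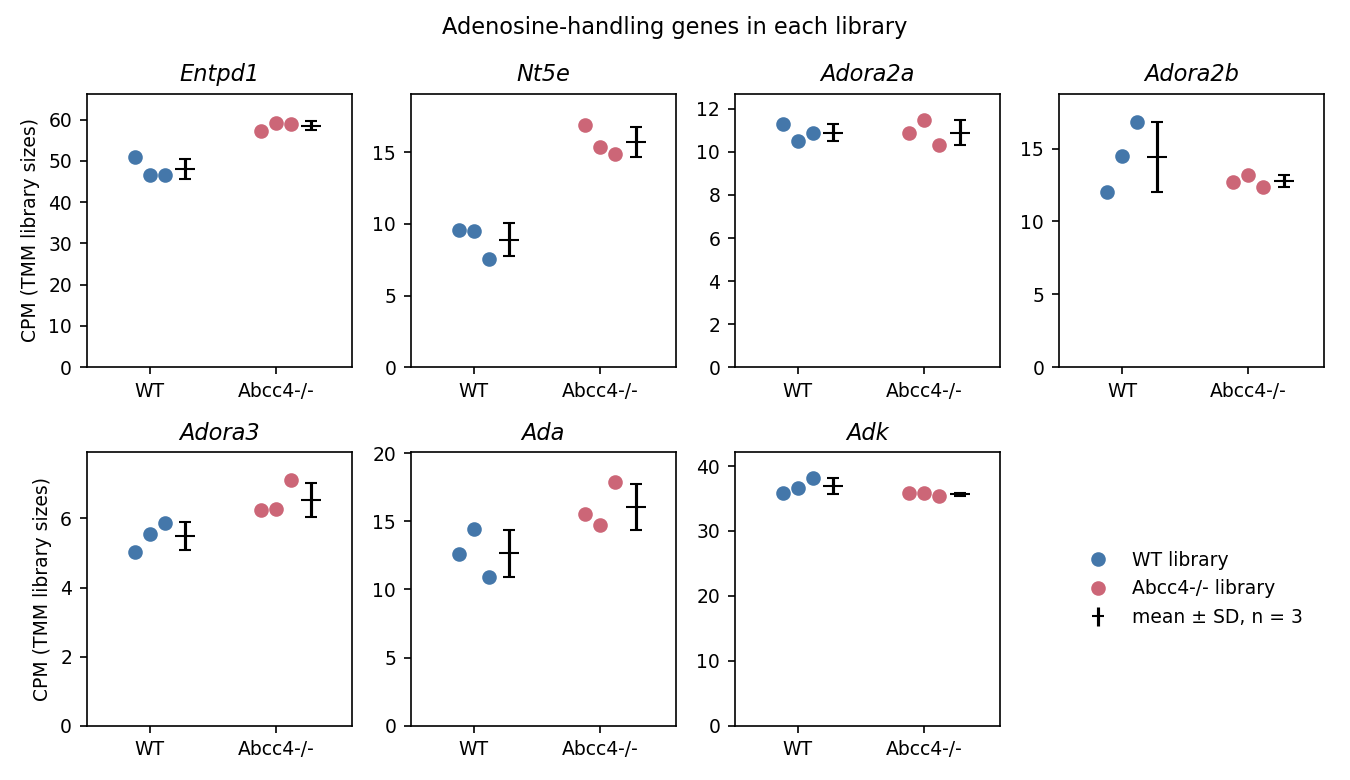
CPM of each member in each library (y axis from 0), with the mean and SD of 3 libraries in black. Nt5e and Entpd1 are higher in every Abcc4-/- library than in any WT library, while the groups of Adora2a and Adora2b overlap.

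Nt5e (ENSMUSG00000032420.8, chromosome 9, positions 88327197 to 88372092, plus strand, GRCm38) encodes the enzyme that makes adenosine from AMP. Its level was 9.61, 9.52 and 7.55 CPM in the WT libraries and 16.9, 15.4 and 14.9 CPM in the Abcc4-/- libraries, from 411 to 1517 counts. The groups were far apart, with every Abcc4-/- library above every WT library. Means were 8.89 ± 1.16 and 15.7 ± 1.03 CPM (SD, n = 3). The log2 fold change was 0.82 (95% interval 0.61 to 1.03; SE 0.10; edgeR, adjusted p = 0.00025). No alternative ended this call, with adjusted p between 1.1e-13 and 0.00844 over 16 alternatives.

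Entpd1 (ENSMUSG00000048120.16, chromosome 19, positions 40612366 to 40741602, plus strand) encodes the enzyme upstream of CD73. It stood at 50.9, 46.7 and 46.7 CPM in WT and at 57.3, 59.3 and 59.0 CPM in Abcc4-/-. The groups were separate, with a narrow spread in each. Means were 48.1 ± 2.4 and 58.5 ± 1.1 CPM (SD, n = 3), a log2 fold change of 0.28 (95% interval 0.17 to 0.40; SE 0.05; edgeR, adjusted p = 0.00383). This interval lies wholly below that of Nt5e, though the difference between both changes was not tested. The call was lost on the deposited TPM, which corrects each count for transcript length within a library: limma on log2(TPM + 1) gave 0.20 (adjusted p = 0.146). In TPM the groups overlapped, with 24.13 to 28.5 in WT and 28.02 to 33.64 in Abcc4-/-. The TPM scale also moved the median of all tested genes to -0.06. The Entpd1 transcript length implied by the ratio of count to TPM, relative to the median gene of each library, varied within both groups. It was 103%, 104% and 93.5% of its average in WT and 104%, 101% and 94.1% in Abcc4-/-.

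Among the receptors, Adora2b had the largest SD in WT (2.41 CPM) and the smallest in Abcc4-/- (0.401 CPM). Adora2b (ENSMUSG00000018500.2, chromosome 11, positions 62248984 to 62266453, plus strand) encodes a receptor of low affinity for adenosine. It had 12, 14.5 and 16.8 CPM in WT and 12.7, 13.2 and 12.4 CPM in Abcc4-/-. WT replicate 1 lay below every Abcc4-/- library, WT replicates 2 and 3 above them, and the Abcc4-/- libraries sat close together. The log2 fold change was -0.18 (95% interval -0.41 to 0.06; edgeR, adjusted p = 0.295). Without WT replicate 1 it was -0.29 and passed the threshold (adjusted p = 0.038), while without WT replicate 3 it was -0.05 (adjusted p = 0.764), so single WT libraries set both the size and the call.

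Adora2a (ENSMUSG00000020178.6, chromosome 10, positions 75316877 to 75334784, plus strand) encodes the high-affinity stimulatory receptor, found on platelets, neutrophils and T cells among other cells. Its values were 11.3, 10.5 and 10.9 CPM in WT and 10.9, 11.5 and 10.3 CPM in Abcc4-/-. The ranges lay over each other, and both means were 10.9 CPM. The interval of the fold change ran from 0.899 to 1.12 (edgeR, adjusted p = 0.976).

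Adora3 (ENSMUSG00000000562.5, chromosome 3, positions 105870858 to 105908926, plus strand) encodes the inhibitory receptor, known from eosinophils and mast cells. It had 5.04, 5.56 and 5.86 CPM in WT and 6.25, 6.27 and 7.10 CPM in Abcc4-/-. Every Abcc4-/- library was above every WT library, but the difference did not pass after adjustment (log2 fold change 0.25, 95% interval 0.04 to 0.47; edgeR, adjusted p = 0.104). Its gene model overlaps that of Tmigd3 on the same strand (positions 105870903 to 105924042), and the fractional counts of Adora3 show that reads were divided, so its value is uncertain. Tmigd3 was low, with means of 0.716 ± 0.0804 and 0.652 ± 0.058 CPM (SD, n = 3). Summing both genes gave a log2 fold change of 0.21 (edgeR, adjusted p = 0.141), an alternative chosen after seeing the data. The 8 eosinophil markers summed to between 849 and 907 CPM in WT and between 437 and 647 CPM in Abcc4-/-, most of it from Prg2 and Epx. Of these markers 3 (Prg2, Epx and Siglecf) were called lower and 0 higher, where 8.68% of all tested genes were called lower. Ear1, Ear2 and Ccr3 overlapped between the groups. For 10 mast cell and basophil markers the sums were 2501 to 3031 CPM in WT and 2114 to 2548 CPM in Abcc4-/-. Of these markers 8 were tested, and 2 were called lower and 0 higher, beside the same share of 8.68%. The protease genes among them differed widely in level. Mcpt4 and Tpsb2 had at most 3 counts in any library and Cma1 had 6 to 22. Cpa3, Mcpt8 and Prss34 were abundant, with means of 152, 513 and 1378 CPM in WT and 136, 444 and 1176 CPM in Abcc4-/-.

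The remaining adenosine receptor gene, Adora1, is not a member and was close to absent. It had 0, 0 and 2 counts in WT and 1, 0 and 0 in Abcc4-/-. All are below the 3 counts that a library at 0 allows, which corresponds to between 0.0304 and 0.0591 CPM and covers counting error only. With so few counts no difference was detectable at this depth, and no fold change is given.

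Of the clearing enzymes, Ada lay near the threshold. Ada (ENSMUSG00000017697.3, chromosome 2, positions 163726584 to 163750239, minus strand) had 12.6, 14.4 and 10.9 CPM in WT and 15.5, 14.7 and 17.9 CPM in Abcc4-/-. The highest WT and the lowest Abcc4-/- library nearly met. The log2 fold change was 0.35 (95% interval 0.10 to 0.59; SE 0.11; edgeR, adjusted p = 0.0559). It passed in DESeq2 (adjusted p = 0.0198), with no filter on low counts (0.00674), with counts thinned to the smallest library (0.0466) and without WT replicate 2 (0.0167). Over all 16 alternatives its adjusted p ran from 0.00674 to 0.171.

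Adk (ENSMUSG00000039197.10, chromosome 14, positions 21052574 to 21448569, plus strand) encodes the kinase that salvages adenosine. Abcc4 lies on the same chromosome but far from Adk, at positions 118482692 to 118706219. It stood at 35.8, 36.7 and 38.2 CPM in WT and at 35.8, 35.8 and 35.4 CPM in Abcc4-/-. The level was nearly constant, with a fold change between 0.896 and 1.04 (95% interval; edgeR, adjusted p = 0.558). In TPM the gap was wider, from 39.3 to 45.8 in WT and from 33.9 to 36.6 in Abcc4-/- (limma on log2(TPM + 1), log2 fold change -0.22, adjusted p = 0.0797). The transcript length implied by the ratio of count to TPM, relative to the median gene of each library, was 96.8%, 99.6% and 94.1% of the Adk average in WT and 106%, 101% and 103% in Abcc4-/-. Among 12582 genes with such a value, 9.08% shifted further than Adk between the groups. Adk has 10 annotated transcripts, 5 of them coding, which gene-level counts do not separate.

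Compared per length, adenosine kinase was the most abundant transcript of the group and CD73 among the scarcest. In WT the order by mean TPM was Adk (41.7 ± 3.57), Entpd1 (26.5 ± 2.21), Adora2b (11.9 ± 2.28), Ada (11.7 ± 1.43), Adora2a (7.02 ± 0.649), Adora3 (3.92 ± 0.229) and Nt5e (3.30 ± 0.422; SD, n = 3 each). Adora2b and Ada overlapped and the other neighbours did not. In Abcc4-/- the order was Adk (35.7 ± 1.5), Entpd1 (30.7 ± 2.81), Ada (14.1 ± 1.81), Adora2b (9.97 ± 0.311), Adora2a (6.83 ± 0.533), Nt5e (5.37 ± 0.196) and Adora3 (4.53 ± 0.326; SD, n = 3 each), with no neighbours overlapping. Nt5e was below Adora3 in every WT library and above it in every Abcc4-/- library, whereas Ada was already above Adora2b in WT replicates 1 and 2.

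Within a library, Entpd1 TPM exceeded Nt5e TPM by 7.341, 7.118 and 10.04 times in WT and by 5.004, 5.806 and 6.395 times in Abcc4-/-. The gap between both enzymes was narrower in every Abcc4-/- library. The ratio of Adora2a to Adora2b was 0.767, 0.537 and 0.510 in WT and 0.645, 0.707 and 0.700 in Abcc4-/-, so Adora2b was the more abundant stimulatory receptor transcript throughout. The ratio of Ada to Adk was 0.289, 0.336 and 0.227 in WT and 0.389, 0.352 and 0.443 in Abcc4-/-, with all 3 Abcc4-/- libraries above WT.

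**Figure D2:**
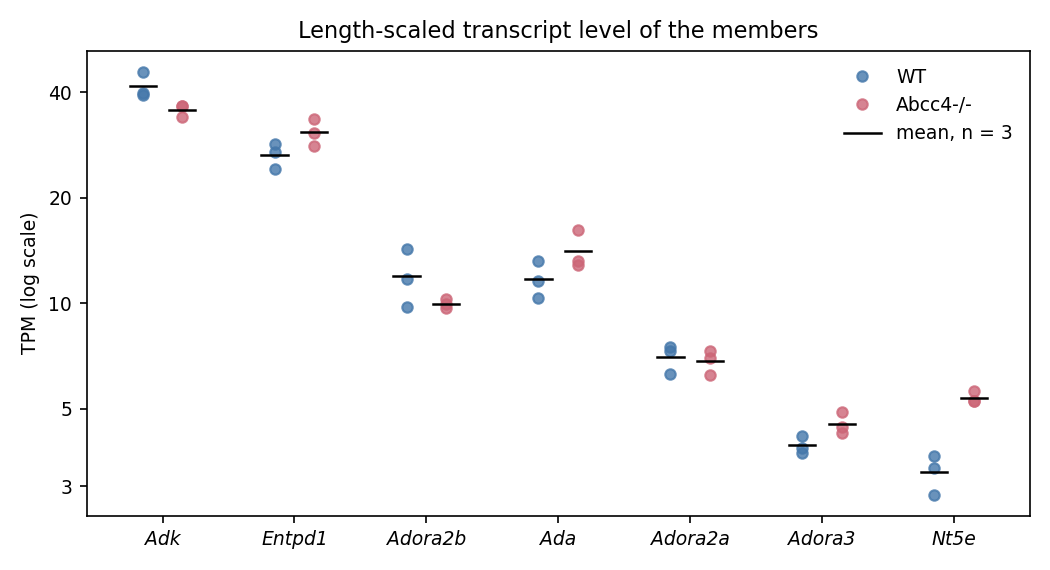
TPM of each member in each library on a log axis, ordered by the WT mean, with black bars for the mean of 3 libraries. Nt5e is lowest in WT (3.30) and above Adora3 in Abcc4-/- (5.37 against 4.53).

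Some other enzymes that act on extracellular nucleotides were higher as well. A wider list held 48 further genes of nucleotide hydrolysis, adenosine transport, intracellular adenosine metabolism and receptor coupling, of which 40 were tested. Of these 6 rose, 3 fell and 31 were not called, with a median log2 fold change of 0.07 against 0.00 for all genes. In the part on extracellular nucleotide hydrolysis and ATP release, 5 of 8 tested genes rose and 0 fell (8.61% of all tested genes rose), with a median of 0.66. The list was chosen with earlier results of these data known, so this share only describes the genes listed. The other 3 tested genes of that part, Enpp1, Enpp2 and the ATP channel gene Panx1, were not called. Their log2 fold changes were 0.05, 0.56 and 0.06 (edgeR, adjusted p = 0.855, 0.216 and 0.461). A further 3 genes of that part, Entpd2, Entpd8 and Enpp3, did not pass the filter.

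Alpl, the alkaline phosphatase that can also remove phosphate from AMP, had 1.27, 1.81 and 1.84 CPM in WT and 3.85, 3.41 and 3.54 CPM in Abcc4-/- (2.19-fold, edgeR adjusted p = 0.00068). Entpd3, a relative of CD39, had 1.49, 1.12 and 1.34 CPM in WT and 2.34, 2.26 and 3.75 CPM in Abcc4-/- (2.11-fold, adjusted p = 0.00686). Both started from low levels, and in both the groups were apart. Acpp, an acid phosphatase with a membrane form that hydrolyses AMP, rose 1.35-fold from 26.2 ± 1.21 to 35.4 ± 1.7 CPM (SD, n = 3; edgeR, adjusted p = 0.00065). Entpd3 and Acpp lost their calls on log2(TPM + 1) (limma, adjusted p = 0.0694 and 0.0775).

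Cd38 and Bst1 (CD157) encode surface enzymes that consume NAD, a route that can also feed AMP to CD73. Cd38 had 13.6, 18.8 and 18.8 CPM in WT and 34.5, 31.0 and 29.3 CPM in Abcc4-/- (1.85-fold, edgeR adjusted p = 0.00392). Bst1 had 46.8, 44.1 and 39.0 CPM in WT and 69.7, 68.5 and 82.2 CPM in Abcc4-/- (1.7-fold, adjusted p = 0.00046). Both genes were apart between the genotypes, and their folds were of the size seen for Nt5e.

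Of the 5 adenosine transport genes tested 1 fell and 0 rose, where 8.68% of all tested genes fell. Slc29a3, a nucleoside transporter of lysosomes, fell 1.18-fold from 123 ± 11.6 to 104 ± 2.21 CPM (SD, n = 3; edgeR, adjusted p = 0.0259). It lost its call without WT replicate 1 or 3, or without any 1 of the Abcc4-/- libraries (adjusted p = 0.0638 to 0.0913). The other 4 transporters tested, the main plasma membrane carrier gene Slc29a1 among them (log2 fold change 0.08, adjusted p = 0.398), were not called. Of 15 intracellular genes tested, 1 fell and 0 rose, near the shares over all tested genes. That gene was Ahcyl2, a relative of the enzyme that splits S-adenosylhomocysteine into adenosine and homocysteine, which went from 56.0 ± 5.35 to 44.4 ± 0.567 CPM (SD, n = 3; 1.26-fold lower; edgeR, adjusted p = 0.00576).

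Of 12 G protein and adenylyl cyclase genes that couple to these receptors, 1 rose and 1 fell, near the shares over all tested genes (8.61% and 8.68%). Adcy6, a cyclase that makes cyclic AMP, fell 1.48-fold from 18.3 ± 1.63 to 12.4 ± 0.831 CPM (SD, n = 3; edgeR, adjusted p = 0.0008). Gna11, of the Gq family, rose 1.18-fold from 21.2 ± 0.927 to 25.0 ± 0.672 CPM (adjusted p = 0.014), and lost its call without WT replicate 1 (0.0589), without Abcc4-/- replicate 2 (0.0699) and on log2(TPM + 1) (limma, 0.425). The stimulatory subunit gene Gnas (log2 fold change -0.06) and the inhibitory subunit genes Gnai2 and Gnai3 (both 0.11) were not called (adjusted p = 0.498, 0.224 and 0.129).

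**Figure D3:**
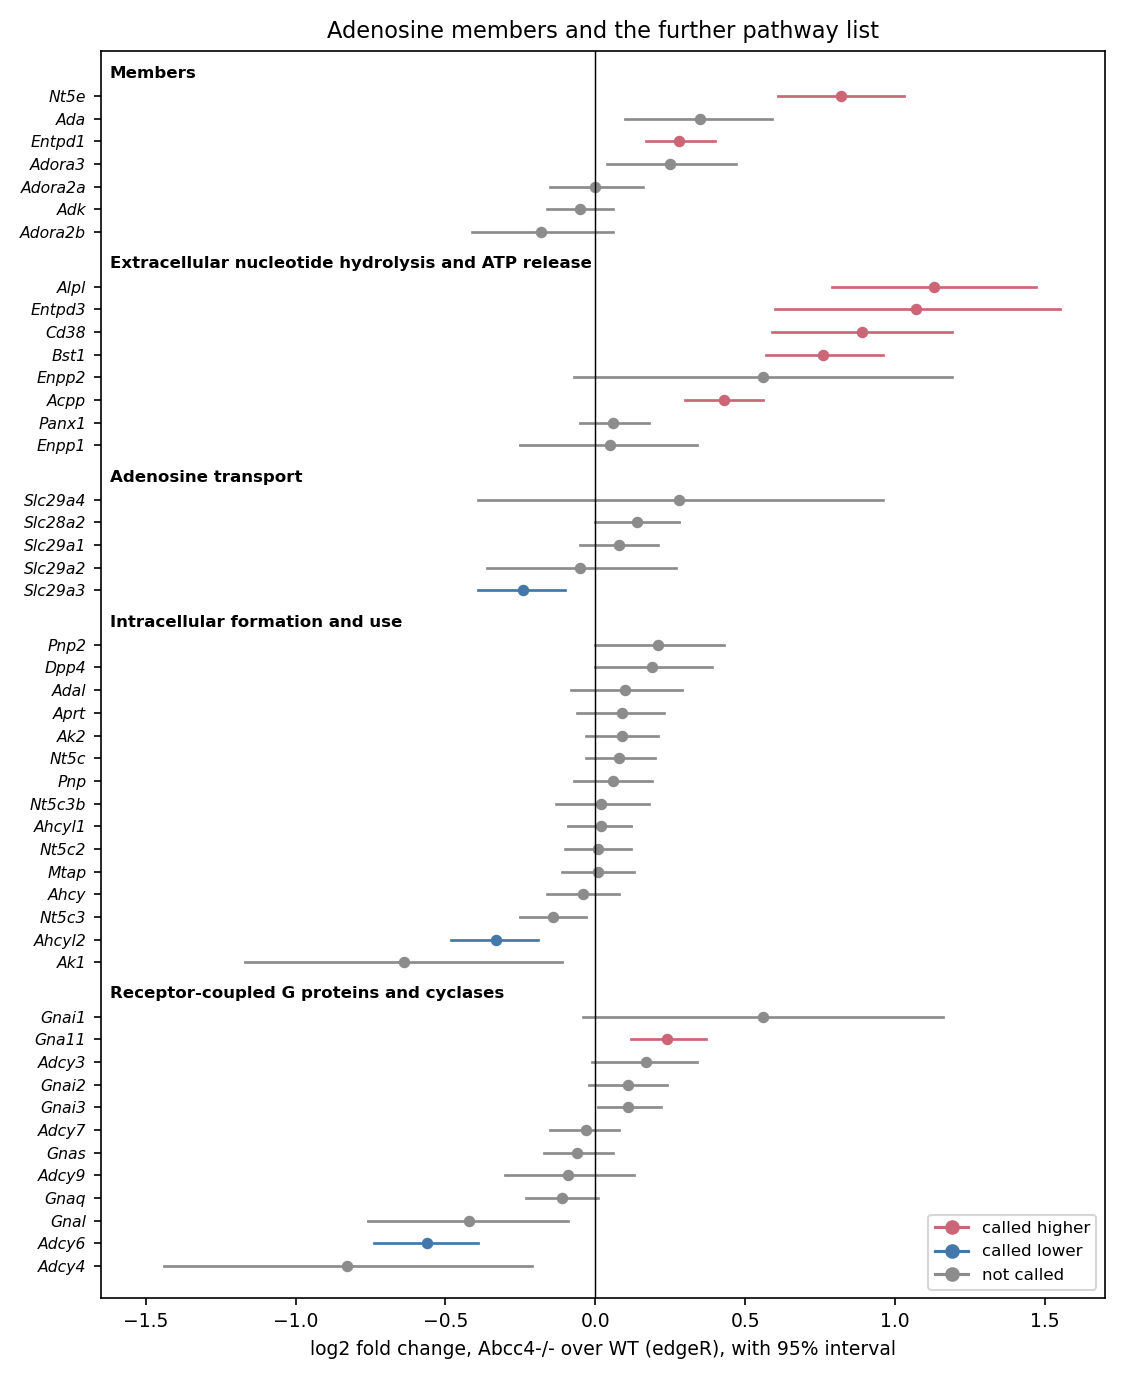
Log2 fold change of Abcc4-/- over WT with its 95% interval for the 7 members and the 40 further pathway genes tested, grouped by role, with called genes in colour. Nt5e and Entpd1 lie right of 0 with 5 of 8 genes of extracellular nucleotide hydrolysis and ATP release, and the intervals of Adora2a, Adora2b and Adk span 0.

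Markers of several lineages differed in the same libraries, where 8.61% of all tested genes were called higher and 8.68% lower. Of 10 B cell markers 7 were called higher and 0 lower, with sums of 505 to 725 CPM in WT and 984 to 1080 CPM in Abcc4-/-. Of 9 T cell markers 8 were called higher and 0 lower (34.6 to 43.2 and 57.8 to 75.2 CPM). Neutrophil markers were called higher for 7 of 10 and lower for 1, and megakaryocyte markers lower for 8 of 13 and higher for 1. Monocyte and macrophage markers summed to 2784 to 3116 CPM and 2623 to 2954 CPM, with 3 of 9 called lower and 0 higher. Of 6 erythroid markers 1 was called higher, and the 6 endothelial and stromal markers summed to 120 to 135 CPM in WT and 131 to 132 CPM in Abcc4-/-. No marker list was at 0 as a whole, and in bulk samples fewer cells of a type and less RNA per cell cannot be told apart.

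Set against the mean of the WT libraries, Nt5e was at 108%, 107% and 84.9% in WT and 190%, 173% and 168% in Abcc4-/-. The summed neutrophil markers were at 103%, 112% and 85.6%, and at 162%, 159% and 152%. B cell markers were at 79.1%, 107% and 114% in WT and T cell markers at 95.8%, 113% and 90.8%. In Abcc4-/- they were at 169%, 155% and 154%, and at 198%, 152% and 152%. WT replicate 3 was the lowest WT library for Nt5e, the neutrophil list and the T cell list but the highest for the B cell list. The highest WT library was replicate 1 for Nt5e and replicate 2 for the neutrophil and T cell lists. Abcc4-/- replicate 1 was the highest library for Nt5e and for the neutrophil, T cell and B cell lists. Entpd1 spanned 119% to 123% in Abcc4-/-, well under the sums of the neutrophil, T cell and B cell lists. The megakaryocyte and eosinophil sums went the other way, at 61.2% to 73.3% and 49.9% to 73.9% in Abcc4-/-. The remaining lists ranged from 76.9% to 108% in Abcc4-/-. The part of these lineages in the values of Nt5e, Entpd1 and the other surface enzymes was not tested.

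**Figure D4:**
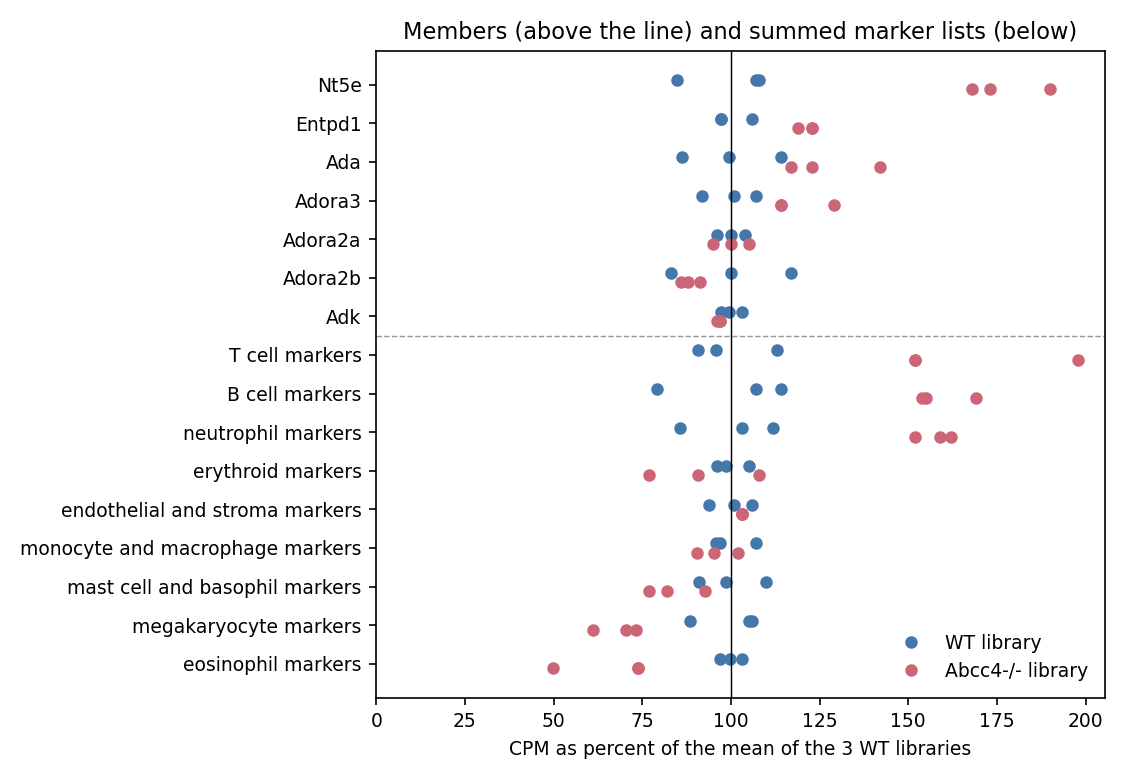
CPM in each library as a percent of the mean of the 3 WT libraries, for each member and for the summed markers of each cell type. Nt5e reaches 168% to 190% in Abcc4-/-, above the neutrophil sums (152% to 162%). The B cell sums there are 154% to 169% and the T cell sums 152% to 198%, the latter above 152% in replicate 1 only. Adora2a stays between 95% and 105%. The megakaryocyte and eosinophil sums lie between 49.9% and 73.9% in Abcc4-/-.

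The genes whose log2 CPM followed each member most closely over the 6 libraries were of mixed kinds. For Nt5e these were the deubiquitinase gene Usp46 (Pearson r = 0.999) and Olfml2b (0.998), and for Entpd1 they were Cdc42se1 (0.9965) and Ngrn (0.996). For Ada they were Pmvk and Mrpl53 (0.992 and 0.989), for Adora3 Mars2 and Cmah (0.989 and 0.983), and for Adk Kbtbd2 and Trak1 (both 0.981). For Adora2b they were the choline kinase gene Chka and Lgalsl (0.9786 and 0.9749), and for Adora2a Fam220a and Iba57 (0.978 and 0.9635). Among 9331 candidate genes, 363 exceeded a correlation of 0.95 with Nt5e and 226 with Entpd1, but 3 with Adora2a and 15 with Adora2b. The 6 points share the genotype split and the depth difference, so these values describe the libraries.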

How the data were processed

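RNA-seq was compared between 3 WT and 3 Abcc4-/- samples labelled as megakaryocytes, grouped by the genotype in the labels. Per the labels' protocols, libraries were stranded, selected for mRNA and sequenced as paired ends. Reads were handled with STAR 2.7 and RSEM 1.3.1 on mm10, per the submitters' processing notes, with an annotation release not given in the sources used here. Deposited by the authors were expected counts per gene, not normalized, and TPM, scaled within each library. The 92 spike-in entries held 0 counts and were left out.

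The rounded expected counts were scaled by TMM, filtered on low counts with edgeR's default and fitted in edgeR 4.0.16 (R 4.3.3) by robust quasi-likelihood, Abcc4-/- against WT, across all 16493 genes that passed, with Benjamini-Hochberg adjustment and a threshold of 0.05. CPM used TMM library sizes, log2 CPM a prior count of 2, and SE came from the fold change and its statistic. The test was checked on simulated data. Alternatives were RLE and upper-quartile scaling, DESeq2 1.42.0, limma-voom (limma 3.58.1), no filter and a stricter one, a replicate block, limma on log2(TPM + 1) and log2(TPM + 0.1), where fold changes of low genes come out too small, each library left out, and counts thinned to 50440239. Gene positions came from GENCODE M21 (GRCm38) and promoters from RefSeq (GRCm38.p6).

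The text names all members, Abcc4, Adora1, every called gene of the further list (at most 12), for each member the 2 genes with the highest correlation among those averaging a log2 CPM of 3 or more, and marker genes; further genes of the list named beside these were chosen with their values known. The members and lists were chosen with earlier results of these data known.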

Additional observations from a re-analysis of the deposited data

How the results depend on the processing

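Nt5e stayed higher and called in all 16 alternatives. Entpd1 kept its direction in all 16 and its call in 14, losing it on log2(TPM + 1) and log2(TPM + 0.1) (0.20 and 0.21). On both TPM scales 1 member was called higher in place of 2, 3 further pathway genes in place of 6, and 599 and 602 genes of the whole table in place of 1420. Genes called lower numbered 1512 and 1552 on these scales and 1432 in the count test. Ada was called with DESeq2 (0.34), with no filter (0.35) and with thinned counts (0.35). Adora2a, near 0 in the count test, was -0.03 and -0.04 on the TPM scales. Leaving out each library in turn gave log2 fold changes of 0.25 to 0.45 for Ada, -0.03 to 0.04 for Adora2a and -0.29 to -0.05 for Adora2b. Without 1 library, 0 to 1 members were called lower, 823 to 1247 genes higher and 897 to 1265 lower. The lowest of these counts came without Abcc4-/- replicate 2 (higher) and replicate 1 (lower). Why these calls moved was not tested. With the replicate number as a block, 1528 genes were called higher and 1629 lower, Nt5e and Entpd1 stayed called (0.83 and 0.29), and Cd38 lost its call (adjusted p = 0.0528). The block has no basis in the labels: deviations of same-numbered libraries correlated at -0.0464, -0.0261 and -0.0145, and no library correlated best with its own number. Adora1 and 7 other genes of the further list did not pass the filter, so no fold change is given for them.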
